A study of Drosophila melanogaster with 18 samples.

Results

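Expression in prepupae that lack normal function of the ecdysone receptor was set against expression in normal larvae at the end of the third instar. The comparison took 6 of the 18 arrays of the series by their titles: 3 arrays of EcRi prepupae collected at 4 h after pupariation, and 3 arrays of control larvae collected at -4 h. The question was how far an animal that has stopped as an elongated prepupa still has the transcripts of a late larva. The 3 arrays of control prepupae at 4 h were used to give the direction of the normal course over the same 8 h, and the remaining arrays only for the spread of each probe set and for levels set side by side.

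Controls were w1118 animals without the transgene. EcRi stands for hs-EcRi-11, a construct under heat-shock control that makes double-stranded RNA against the region common to all EcR transcripts. Their larvae received 2 heat treatments at 37 °C of 1 h each, at 24 and 18 h before pupariation. The sources do not say whether controls were heated. Each array held the RNA of 10 whole animals from 1 of 3 independent collections. The larvae at -4 h were staged by bromophenol blue in the food, as wandering larvae whose gut had cleared. The transgene and the passage of 8 h, and heat if controls received none, differ together between the compared groups and cannot be told apart in this contrast. Because whole animals were used, fewer cells of a type and less RNA per cell cannot be told apart either.

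Tissues read the steroid 20-hydroxyecdysone (20E) with the nuclear receptor EcR, which binds DNA together with its partner Ultraspiracle. The pulse of 20E at the end of larval life switches on a few early regulatory genes, which in turn act on many late genes. In the salivary gland the pulse ends transcription of the glue genes and starts that of the L71 late genes. In the midgut the larval epithelium with its digestive enzymes is lost, and in the epidermis and imaginal discs new cuticle is made while the larval cuticle is tanned into the puparium.

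Values are intensities per probe set. A value below 91.6, the 20th percentile of all values and here called the floor, was raised to it before log2 was taken. A probe set was called where limma gave a Benjamini-Hochberg adjusted p under 0.10 over all 13966 probe sets and a difference of at least 1.5-fold. Log2 differences are EcRi 4 h minus control -4 h unless another contrast is named, and ± gives their standard error (SE) except after an intensity, where it gives the SD over 3 arrays. Adjusted p-values are limma's throughout.

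Within-group correlation over all probe sets was 0.992 between control -4 h replicates 2 and 3, but 0.917 and 0.915 between either and replicate 1. Replicate 1 lay at least 2-fold from the mean of the other 2 in 1106 probe sets, and above them in 839 of these. Among EcRi 4 h arrays the correlation was 0.974 between replicates 1 and 3, and 0.944 and 0.945 between either and replicate 2, and replicate 2 lay at least 2-fold from the other 2 in 534 probe sets, 507 of them higher. Deviations from the group mean correlated at 0.64 between control -4 h replicate 1 and EcRi 4 h replicate 3, and at -0.58 between the former and EcRi 4 h replicate 2. Calls are described as held where they kept their direction and their call with each of the 6 arrays left out in turn, without 2 arrays (replicate 1 of control -4 h and of EcRi 0 h, as the latter stood apart too), and without 4 arrays. The 4 arrays add EcRi 4 h replicates 1 and 3, so that EcRi 4 h replicate 2 alone stands for its group and is assumed to vary like the other groups.

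By mean Pearson correlation, all 3 arrays of arrested prepupae were nearer to control larvae than to control prepupae of their own age, clearly so for 2 of them. Their Pearson correlation over 13966 probe sets lay between 0.871 and 0.940 with control -4 h arrays, between 0.855 and 0.924 with control 0 h arrays and between 0.832 and 0.914 with control 4 h arrays. The root mean square log2 difference was 0.466 to 0.689 from control -4 h and 0.557 to 0.766 from control 4 h. Replicates 1 and 2 had control -4 h replicate 2 as their nearest control array (0.920 and 0.940), and replicate 3 had control -4 h replicate 1 (0.939), which was followed by replicate 2 of that group at 0.923. Means over the 3 arrays of a group were 0.910 with control -4 h against 0.851 with control 4 h for replicate 1, and 0.926 against 0.870 for replicate 3. For replicate 2 they were 0.916 and 0.911, with 0.922 for control 0 h. Its order rested on control -4 h replicate 1, with which it had 0.871, beside 0.940 and 0.938 with the other 2 larval arrays. By Spearman's rho its mean was 0.917 with control -4 h and 0.936 with control 4 h, while replicates 2 and 3 of control -4 h alone gave 0.948 and 0.947. By mean correlation the arrested prepupae were nearer still to EcRi -4 h animals, at 0.936, 0.966 and 0.937 for replicates 1, 2 and 3. Single pairs of arrays lay between 0.932 and 0.966. With EcRi 0 h arrays the range was wider, from 0.809 to 0.976. Outside their own group the nearest array was an EcRi array for each of the 3. Probe sets are not independent replicates, and these values share arrays, so they are given as a description.

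**Figure D1:**
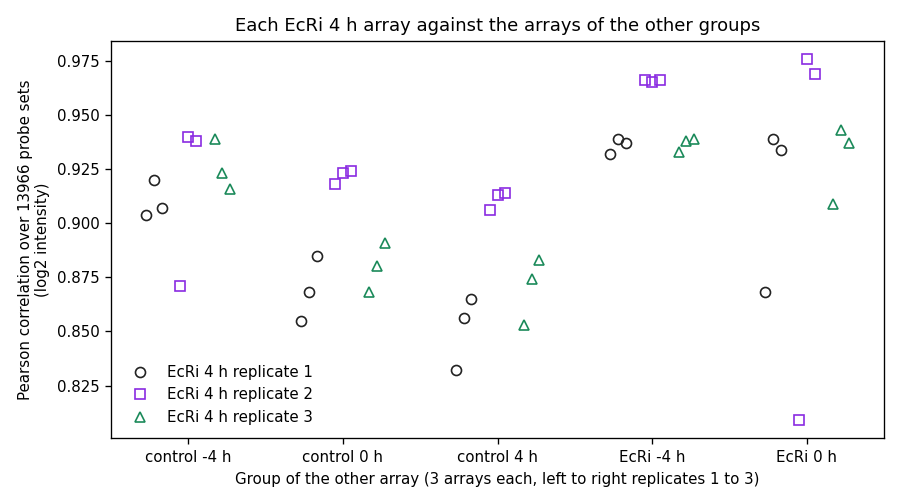
Pearson correlation (vertical axis) of each of the 3 EcRi 4 h arrays with the 15 arrays of the other groups (horizontal axis), over log2 intensities of 13966 probe sets. Correlations with control -4 h arrays reach 0.940 and those with control 4 h arrays 0.914, and EcRi 4 h replicate 2 has its lowest values with control -4 h replicate 1 (0.871) and EcRi 0 h replicate 1 (0.809).

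Of 13966 probe sets, 670 (4.80%) were called between arrested prepupae and control larvae, 271 higher (1.94%) and 399 lower (2.86%) in the prepupae. An unadjusted p under 0.05 was reached by 2351. In 357 (2.56%) the call was held, 166 higher (1.19%) and 191 lower (1.37%). Differences of at least 4-fold were called in 44 higher and 42 lower probe sets, and 40 of each were held. Without control -4 h replicate 1 the count was 756 (289 higher, 467 lower), and 588 of the 670 were called again in the same direction. The balance of higher and lower calls depended on single arrays: it was 281 to 246 without EcRi 4 h replicate 1, 242 to 692 without EcRi 4 h replicate 2, 384 to 955 without 2 arrays and 736 to 383 without 4 arrays. Quantile normalization gave 366 higher and 347 lower. At the other end, the 95% confidence interval of the difference lay wholly within 1.5-fold for 6147 of the 12311 probe sets that rose above the floor on at least 1 of the 6 arrays (49.9%). For 5115 of these it did so without control -4 h replicate 1 as well.

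**Figure D2:**
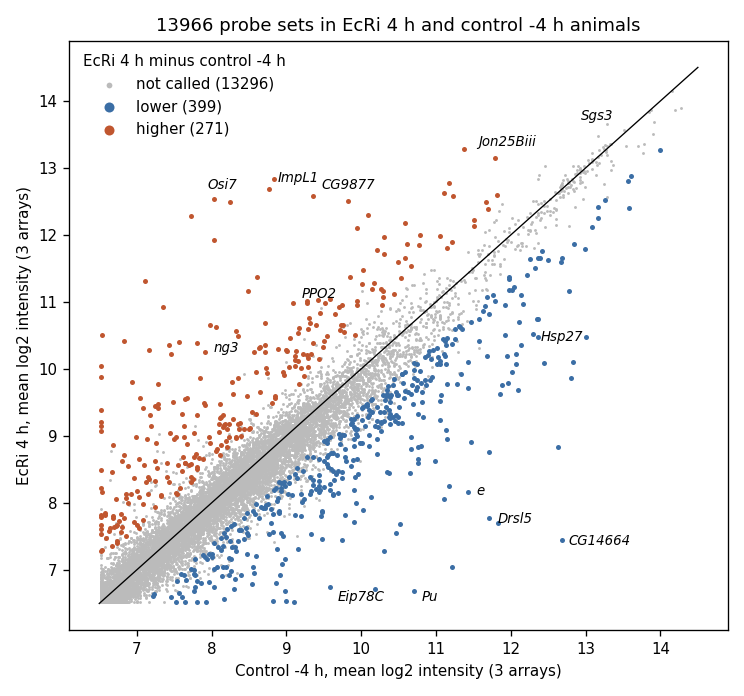
Mean log2 intensity of each of 13966 probe sets in control -4 h animals (horizontal axis) and EcRi 4 h animals (vertical axis), 3 arrays each, with the line of equal levels. The 271 probe sets called higher and the 399 called lower are coloured, and Sgs3, which was not called, lies on the line.

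The normal course gave a scale for these differences. In controls 1185 probe sets (8.48%) changed from -4 to 4 h, 590 upward (4.22%) and 595 downward (4.26%). For each, the EcRi 4 h level was tested against the midpoint of the control -4 h and control 4 h levels on the log2 scale. The estimate of this contrast is uncorrelated with the control change only where the spread is equal in all groups. Here the spread was not equal, with within-group correlations of 0.915 to 0.992 in control -4 h and 0.990 to 0.995 in control 4 h. The estimates can therefore be correlated. Over all probe sets 1059 (7.58%) differed from this midpoint, 2.61% being above it and 4.97% below. Of the 1185, 284 (24.0%) were called on the larval side of it, 89 (7.5%) on the prepupal side, and 812 were not called. Among the 590 that rose in controls 125 were on the larval and 33 on the prepupal side, and among the 595 that fell 159 and 56. Without control -4 h replicate 1 the counts were 243 and 107 of 973. For genes that fell in controls the larval side held more probe sets in every fit shown in the plot of larval and prepupal sides. For genes that rose in controls the order was not stable, since 259 against 25 were called without EcRi 4 h replicate 2 and 74 against 138 without 4 arrays, where replicate 2 stands alone.

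**Figure D3:**
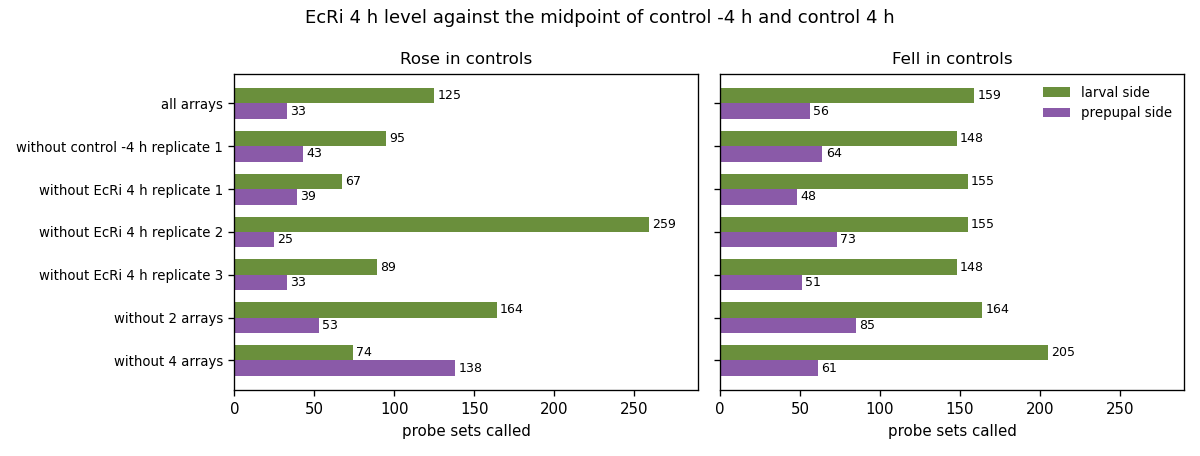
Number of probe sets (bars, horizontal axis) that rose (left) or fell (right) from -4 to 4 h in controls and whose EcRi 4 h level was called on the larval or on the prepupal side of the control midpoint, for all arrays and with arrays left out. With all arrays 125 and 33 of those that rose, and 159 and 56 of those that fell, were called on the larval and the prepupal side.

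Transcripts of EcR itself were measured with a brighter and a dimmer probe set. The brighter one read 533, 521 and 547 in control larvae and 509.6, 533 and 520.0 in arrested prepupae, so the groups overlapped and the 95% interval lay within 1.5-fold (log2 -0.04 ± 0.09). The dimmer one read 251, 303 and 324 against 215, 192 and 215, with the prepupae below the larvae on every array (log2 -0.49 ± 0.13, adjusted p = 0.051), but under the 1.5-fold limit. Without control -4 h replicate 1 this difference was -0.60, past both limits (adjusted p = 0.025). Whether either probe set also reads the double-stranded RNA was not tested.

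The salivary gland kept the glue transcripts of a larva. Glue proteins are secreted at pupariation and fix the puparium to its substrate, and in controls 8 of the 9 measured genes of this list fell over the 8 h. None of them was called lower in arrested prepupae than in control larvae, and 7 lay on the larval side of the midpoint. Sgs3 read 11470.3, 11319.8 and 12235 in control larvae and 11681, 11856 and 12651 in arrested prepupae, against 346, 334 and 336 in control prepupae. The ranges of arrested prepupae and larvae overlapped (log2 0.05 ± 0.13), while in controls the gene fell by 5.11 (adjusted p = 1.5e-11). Sgs5 (log2 -0.28 ± 0.10) and Sgs7 (-0.01 ± 0.14) also had intervals within 1.5-fold of the larval level. Sgs1 (0.25 ± 0.22), Sgs4 (-0.24 ± 0.20) and Sgs8 (-0.37 ± 0.12) were not called, with intervals that reached past 1.5-fold. The median of the list was -0.01, beside -0.01 over all probe sets, whereas in controls it was -3.95.

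Of 9 glue-list genes 1 went beyond the larval level (1.94% of all probe sets were called higher). The gene ng3, one of the new glue genes of the salivary gland, read 217, 228 and 283 in control larvae and 992, 1316 and 1418 in arrested prepupae. The groups did not overlap (log2 2.35 ± 0.28, 5.09-fold, adjusted p = 2.2e-04, held). In controls it fell further (log2 -0.90), and in EcRi animals of -4 h it had read 3227 ± 319 (SD, n = 3), above the arrested prepupae.

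The L71 late genes, which encode small secreted peptides of the same gland, stayed at or below the larval level. In controls 6 of 9 measured members rose, by up to 5.38. Eig71Ef read 150.2, 163 and 120.1 in control larvae and 173, 131 and 148 in arrested prepupae, with a mean of 5734 ± 155 in control prepupae. The first 2 groups overlapped, with an interval within 1.5-fold (log2 0.07 ± 0.21). Eig71Ea was lower than in larvae, at 119.7, 137 and 124 against 284, 389 and 260.2 (log2 -1.27 ± 0.23, adjusted p = 0.0047). Eig71Eg was lower as well, at 80.9, 52.4 and 84.6 against 149, 192 and 215. Since all 3 arrested prepupae lay below the floor, its difference is at least 2-fold (adjusted p = 0.0095). The third called member, Eig71Ee, follows the opposite course in controls, where it fell by 3.64. In arrested prepupae it read 4589, 5225 and 4966 against 8461, 9481 and 9560.3 in larvae (log2 -0.90 ± 0.13, adjusted p = 7.7e-04), still above the 733 of control prepupae. These 3 calls were held (2.86% of all probe sets were called lower), and 7 of the 9 genes lay on the larval side of the midpoint.

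**Figure D4:**
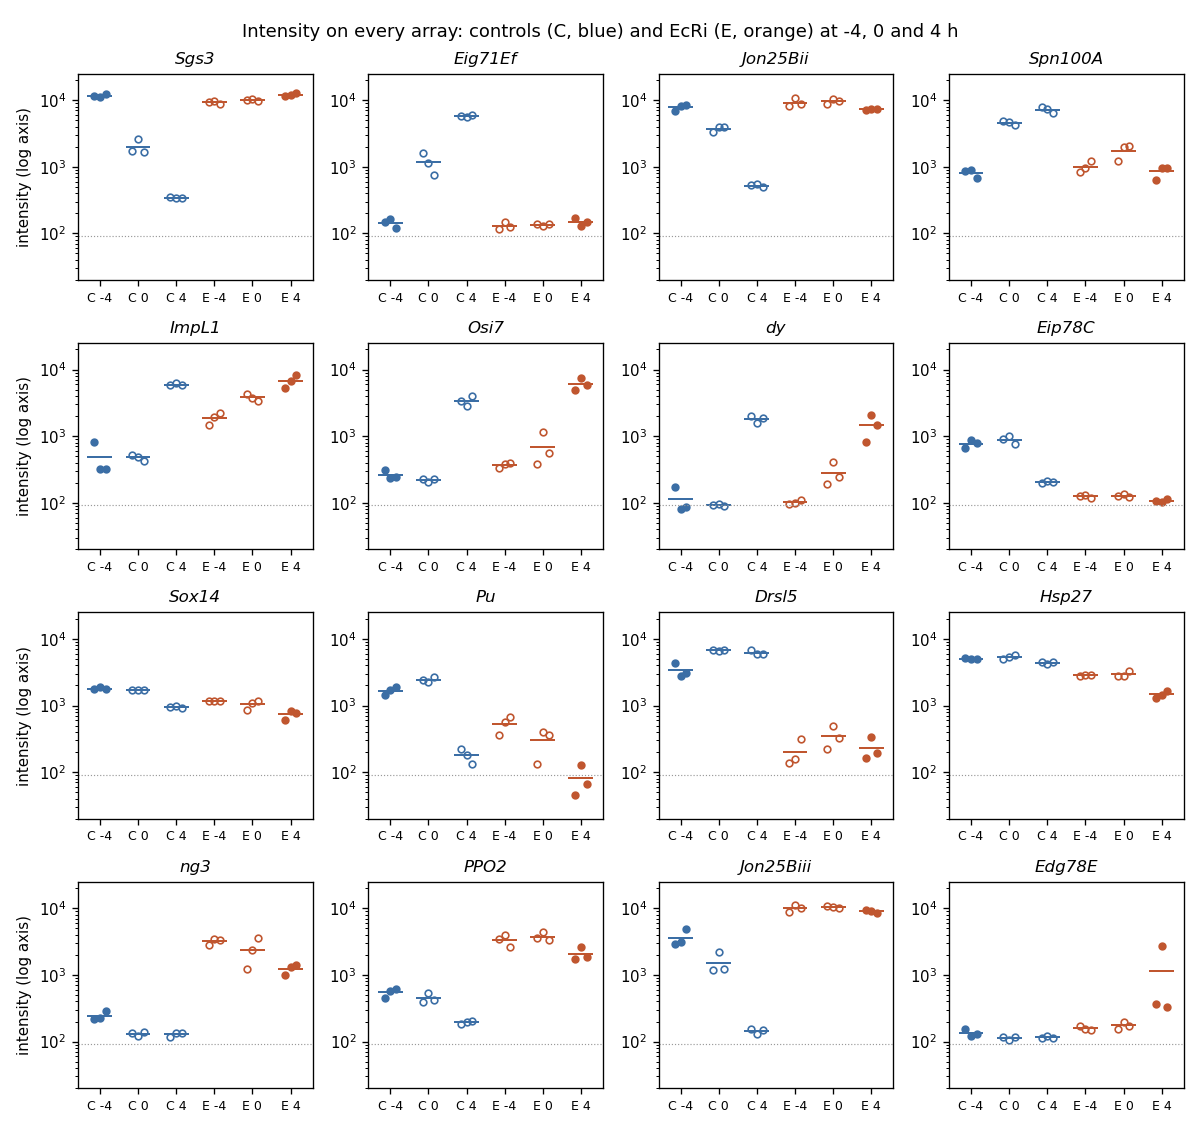
Intensity on all 18 arrays (vertical axes, logarithmic) of 16 genes in control (C, blue) and EcRi (E, orange) animals at -4, 0 and 4 h, with group means as bars and the floor of 91.6 dotted; the compared groups are filled. Sgs3, Eig71Ef, Jon25Bii and Spn100A lie at the control -4 h level in EcRi 4 h animals, ImpL1, Osi7 and dy lie near or above the control 4 h level, and Drsl5 and Hsp27 lie below both.

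Digestive enzymes of the midgut were called in both directions against larvae, more often lower. All 14 measured Jonah genes, which encode serine proteases of the larval gut, fell in controls (median log2 -2.90). In arrested prepupae 10 were on the larval side of the midpoint and 1 on the prepupal side, and the median against larvae was -0.38, with 1 called higher and 3 lower (1.94% and 2.86% of all probe sets). The lower calls numbered 1 when either EcRi 4 h replicate 1 or 3, or the third control -4 h array, was left out, and 5 without 2 arrays. Jon25Bii read 6784, 8291 and 8333 in larvae and 7011, 7401 and 7287 in arrested prepupae, within 1.5-fold (log2 -0.10 ± 0.11), with 523 ± 29.6 in control prepupae. Jon25Bi, Jon65Aii, Jon65Aiii and Jon65Aiv also had intervals within 1.5-fold. Against these, Jon65Ai was lower, at 2649.9, 3617 and 3057 against 5979, 6814 and 6789 (log2 -1.08 ± 0.15, adjusted p = 6.6e-04, held), and it was the member on the prepupal side. The calls of Jon99Fi (log2 -1.78 ± 0.49, adjusted p = 0.055) and Jon66Cii (-1.16 ± 0.30, adjusted p = 0.040) were lost without control -4 h replicate 3 (adjusted p = 0.19 and 0.16), without EcRi 4 h replicate 1 (0.19 and 0.14) and without EcRi 4 h replicate 3 (0.17 and 0.11), and that of Jon99Fi also without 4 arrays (0.22).

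Jon25Biii stood above the larval level. It read 2883, 3169.7 and 4810.2 in larvae and 9421, 9202 and 8639.7 in arrested prepupae, without overlap (log2 1.36 ± 0.22, 2.57-fold, adjusted p = 0.0021, held). In EcRi -4 h animals it had read 9963 ± 1175, so its level in EcRi animals was already above that of control larvae at the same time. Amy-d, an amylase gene, was likewise higher (1512, 2596 and 1141 against 445, 712 and 805, log2 1.38 ± 0.30, adjusted p = 0.016, held).

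Of 14 measured trypsin genes 1 was called, epsilonTry, which was lower (log2 -0.97 ± 0.22, adjusted p = 0.020) and was lost without 4 arrays (adjusted p = 0.11). Trypsin yip7 read 7619, 9593 and 7978 in larvae and 9093, 8483 and 9183 in arrested prepupae (log2 0.09 ± 0.10), within 1.5-fold, against 902 ± 116 in control prepupae. In controls 8 of the 14 fell. Of 26 measured carbohydrase and lysozyme genes, 3 were higher and 6 lower (1.94% and 2.86% of all probe sets), and 1 and 3 of these were held. Amy-d was the higher call that held, since those of Mal-A3 (log2 0.61) and tobi (0.87) were lost without control -4 h replicate 2 or 3, that of Mal-A3 also without EcRi 4 h replicate 2 and that of tobi without EcRi 4 h replicate 1 or 3. With the compared arrays only, none was higher and 1 lower. The maltase genes Mal-A6 (247, 378 and 246 against 563, 860.0 and 1170.0, log2 -1.54 ± 0.34, adjusted p = 0.018) and Mal-A5 (749, 1014 and 1189.5 against 2666, 2491 and 2543, -1.41 ± 0.20, adjusted p = 9.7e-04) were lower and held, as was LysC, a lysozyme gene (-0.98 ± 0.23, adjusted p = 0.024). LysB, LysD and LysE were also called lower but fell under the 1.5-fold limit without control -4 h replicate 3 (log2 -0.54, -0.57 and -0.56). These lysozyme genes are near-identical copies, and their probe sets may read each other's RNA.

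Other genes with a marked normal change stood at the larval level, and their functions are varied. Spn100A, which encodes a serpin, read 858, 889.8 and 689 in larvae and 643, 965 and 955 in arrested prepupae (log2 0.06 ± 0.22), against 7225 ± 712 in control prepupae. Drsl6, of the drosomycin peptide family, read 138, 131 and 125 against 151, 134 and 156 (0.16 ± 0.14), where control prepupae reached 1016. CG9331 (-0.03 ± 0.23) and CG7059 (-0.08 ± 0.14) rose in controls by 3.03 and 2.76 but had intervals within 1.5-fold between arrested prepupae and larvae. Among genes that fell in controls, CG10911 (0.08 ± 0.16) and CG34227 (-0.21 ± 0.17) were also within 1.5-fold of the larval level. CG34227, for example, read 10191, 9353 and 11443 against 11259, 11494 and 12981. Of the imaginal disc genes induced by 20E, ImpE2 (2243, 3206 and 2815 against 3597, 3793 and 3781, log2 -0.45 ± 0.17) and ImpE3 (-0.69 ± 0.30) were not called against larvae, and both lay on the larval side of the midpoint, since controls rose by 1.01 and 1.30. The nuclear receptor gene Hr3, which rises in early prepupae, also lay on the larval side (mean 130.2 ± 19.8, beside 145 ± 33.6 in larvae and 382 ± 160.4 in control prepupae).

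A second set of genes lay above the larval level, and some of them had reached or passed the level of normal prepupae. The 10 genes furthest above larvae included members of the Osiris family, which encode transmembrane proteins of cuticle-secreting epithelia. Osi7 read 309, 237 and 247 in larvae and 4926, 7417 and 5794 in arrested prepupae, an increase of 22.7-fold (log2 4.51 ± 0.30, adjusted p = 2.0e-06), with 3359, 2806 and 4062 in control prepupae. Osi6 (759, 384 and 327 against 7291, 8730.0 and 6213, log2 4.01 ± 0.31) and Osi15 (292, 123 and 121 against 1763, 2309 and 1812, 3.57 ± 0.28) were higher without overlap as well, with control prepupae at 1550.2 and 1390.4. All 3 were held and were called on the prepupal side of the midpoint. Of 24 measured Osiris genes 9 were called higher, 8 of them held, and none lower (1.94% of all probe sets were called higher), with a list median of 0.30. In controls 5 rose. Osi17 (log2 1.03 ± 0.10), Osi24 (1.15 ± 0.19), Osi9 (0.94 ± 0.17) and Osi14 (0.87 ± 0.18) were among the held calls. The count of higher Osiris genes was 8 to 10 with 1 array left out and 11 without 4 arrays, and 4 with the compared arrays only.

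ImpL1, an imaginal disc gene named for its late induction by 20E, read 805, 321 and 319 in larvae and 5297, 6685 and 8141 in arrested prepupae. This 15.2-fold difference (log2 3.92 ± 0.30, adjusted p = 5.8e-06, held) placed it at the level of control prepupae, which read 5794, 6245 and 5819.8. The gene dy, which encodes dusky, a zona pellucida (ZP) domain protein of the apical matrix, read 175, 80.8 and 87.5 in larvae, 2 of which were below the floor, and 824, 2050.2 and 1491 in arrested prepupae (log2 3.58 ± 0.34, adjusted p = 3.0e-05, held). Its relative dyl was higher too (1038, 1601 and 999 against 623, 639 and 595, log2 0.94 ± 0.18, adjusted p = 0.0071, held), while controls did not change (0.11 ± 0.18). Of the 9 measured ZP-domain genes 3 were higher and 1 lower (1.94% and 2.86% of all probe sets), and 2 of the higher calls were held. That of dpy (0.68) was lost when EcRi 4 h replicate 2 or the third control -4 h array was left out. The lower call, pio (-1.19), was lost when EcRi 4 h replicate 1 or either of control -4 h replicates 2 and 3 was left out. With 2 or 4 arrays left out 5 were higher, and with the compared arrays only 1 was higher and none lower.

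CG3355, the gene with the second largest increase among the named genes, read 308, 299.9 and 303 in larvae and 4031, 6517 and 7212 in arrested prepupae (log2 4.24 ± 0.32, adjusted p = 5.8e-06), with 13563 ± 348 in control prepupae. It therefore lay on the prepupal side of the midpoint but below the normal prepupal level. CG4702 (347, 218 and 242 against 3002, 4626 and 4184, log2 3.88 ± 0.31) and CG14107 (3.96 ± 0.41, with 2 of 3 larval values below the floor) were on the prepupal side too. CG8420 (84.0, 189.8 and 169 against 851, 1442 and 1551, 3.11 ± 0.49) was not called against the midpoint. All 4 were held. In EcRi animals of -4 h ImpL1 (1888 ± 380.3) and CG3355 (1057 ± 181) already lay above the control larvae. Osi7 (327, 383 and 397) lay above them by less, and dy (103 ± 7.18) within their range.

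Genes that lay lower than in larvae, on the prepupal side, include parts of the 20E cascade. Eip78C, a nuclear receptor gene and a classic early-late target, read 667, 876 and 779 in larvae and 105, 102 and 114 in arrested prepupae (log2 -2.85 ± 0.10, 7.20-fold, adjusted p = 1.3e-08, held), below the 205 ± 9.01 of control prepupae. Among the other 11 measured nuclear receptor genes none was called with all arrays, and 3 of the 12 lay at or below the floor on all 6 arrays. Without control -4 h replicate 1, however, 3 of the 12 were called lower, as they were without 2 arrays, 2 were lower without EcRi 4 h replicate 2, and 3 were lower and 1 higher without 4 arrays. Of 9 genes listed as early ecdysone regulators, among them the enzyme gene MsrA, 3 were lower (2.86% of all probe sets) and none higher. The count of lower calls was 2 to 4 when 1 array was left out and 5 without 2 arrays. Sox14, an HMG-box transcription factor gene (605, 834 and 764 against 1762, 1869 and 1752, log2 -1.30 ± 0.11, adjusted p = 1.6e-05), and MsrA, the methionine sulfoxide reductase gene induced by ecdysone (99.5, 119.7 and 113 against 287, 343 and 519.8, -1.75 ± 0.22, adjusted p = 2.8e-04), were held and lay on the prepupal side. The Broad-Complex gene br was lower at its brightest probe set (125, 291 and 148 against 440.0, 1003 and 829, -2.03 ± 0.51, adjusted p = 0.033), but the call was lost without control -4 h replicate 2 (0.12) or 3 (0.12) or EcRi 4 h replicate 1 (0.14) or 3 (0.10), and the other 2 probe sets gave -0.36 and -1.10. In EcRi -4 h animals Eip78C had already read 124 ± 4.52, near the arrested prepupae.

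Enzymes of tanning were lower in arrested prepupae than in larvae. These enzymes make the catecholamines that harden and darken the puparium, and all 4 calls among 8 measured genes were lower and held (2.86% of all probe sets were called lower). Pu, which encodes the GTP cyclohydrolase that supplies the pterin cofactor, read 1419.7, 1685 and 1911 in larvae and 45.9, 130.2 and 67.2 in arrested prepupae, 2 of them below the floor (log2 -4.01 ± 0.37, adjusted p = 2.5e-05). The gene e, which encodes ebony, read 3491, 3295 and 1845 against 229, 354 and 296 (-3.26 ± 0.36, adjusted p = 1.1e-04). Both were on the prepupal side of the midpoint. In EcRi -4 h animals Pu had already read 367, 567 and 677, below control larvae. The summed intensity of the list was 12724 to 15149 in control larvae, 4086 to 5633 in EcRi -4 h animals and 3586 to 5257 in arrested prepupae. The genes ple, for tyrosine hydroxylase (4591, 4682 and 3301 against 638, 1548 and 990.2, -2.06 ± 0.31, adjusted p = 0.0013), and Ddc, for dopa decarboxylase (4215, 4206 and 4526 against 816, 1669 and 909, -2.01 ± 0.31, adjusted p = 0.0016), were lower without overlap. In control prepupae ple still read 2634 ± 213 and did not pass the test for a change (log2 -0.66 ± 0.31), whereas Ddc had fallen by 3.66. Of the 13 measured yellow genes, which are linked to pigmentation, 3 were lower and 1 higher (2.86% and 1.94% of all probe sets). The lower calls, yellow-e (-1.96 ± 0.16), yellow-b (-1.32 ± 0.28) and yellow-f (-1.27 ± 0.23), were held. The higher call, yellow-d2 (1.64 ± 0.41), was lost without control -4 h replicate 3 (adjusted p = 0.10) or EcRi 4 h replicate 1 (0.13) or 3 (0.11).

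Several of the largest decreases were in genes known only by number here. CG14664 read 7439, 6004 and 6307 in larvae and 195, 132 and 207 in arrested prepupae (log2 -5.23 ± 0.27, adjusted p = 2.3e-07), and 141 in control prepupae. CG11529 (-2.92 ± 0.25), CG2444 (-2.53 ± 0.14), CG9822 (-2.92 ± 0.32) and CG7778 (-2.95 ± 0.29) were also on the prepupal side of the midpoint. The authors list CG14664, CG11529 and CG2444 as downregulated in EcRi animals at -4 h already, against controls of the same age. At 4 h they list CG11529 and CG2444 as upregulated against such controls, and give no value for CG14664. CG11912 (876, 1119 and 831 against 7044, 7282 and 7213, -2.94 ± 0.41) fell in controls by 4.16 and was not called against the midpoint. Each of these 6 calls was held.

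Another set of genes had left the larval level without following the normal course, since controls either did not pass the test for a change or changed the other way. Drsl5, of the drosomycin peptide family, read 4345, 2815 and 3102 in larvae and 161, 341 and 191 in arrested prepupae (log2 -3.94 ± 0.35, 15.4-fold, adjusted p = 2.0e-05), with 6226 ± 438 in control prepupae. It was already at 202 ± 95.1 in EcRi -4 h animals. CG7906 (207, 163 and 264 against 4309, 3611 and 3131, -4.14 ± 0.36), CG7924 (415, 553 and 419 against 7710.1, 6208 and 5281, -3.79 ± 0.39) and CG11892 (189, 165 and 122 against 958, 1319.8 and 1603, -3.02 ± 0.40) had the same pattern, with control prepupae at 7125, 11633 and 2306. All 4 were held. PGRP-SB2, a peptidoglycan recognition protein gene, rose in controls by 3.08 and was lower in arrested prepupae than in larvae (315, 355 and 363 against 851, 984 and 649.9, -1.25 ± 0.15, adjusted p = 1.9e-04, held). Among 9 antimicrobial peptide genes 1 was higher and 1 lower (1.94% and 2.86% of all probe sets). Drs, the drosomycin gene itself, read 5535, 9196 and 4749.8 against 3862, 3046 and 4057 (0.78 ± 0.23), a call that was lost when any of 4 of the 6 arrays was left out, control -4 h replicates 2 (adjusted p = 0.22) and 3 (0.12) and EcRi 4 h replicates 1 (0.11) and 2 (0.15).

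The small heat-shock genes were lower in arrested prepupae. Hsp27 read 5104, 4928 and 4953 in larvae and 1319.6, 1444 and 1649 in arrested prepupae (log2 -1.77 ± 0.08, 3.41-fold, adjusted p = 5.9e-08), and Hsp26 read 5427, 5045 and 5414 against 1138, 1731 and 1484 (-1.89 ± 0.13, 3.70-fold, adjusted p = 3.2e-06). The groups did not overlap for either gene, and both calls were held (2.86% of all probe sets were called lower). Control prepupae read 4394 ± 146 and 4929 ± 228, with no called change from larvae (-0.19 and -0.10). Both genes are induced by 20E as well as by heat. In EcRi -4 h animals Hsp27 stood at 2842 ± 42.7 and Hsp26 at 1872 ± 282, between control larvae and arrested prepupae. Hsp68, a heat-inducible gene of the Hsp70 family, was not called with all arrays (-0.74 ± 0.39), although all 3 measured genes of the list were called lower without 2 arrays.

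PPO2 and PPO1, which encode prophenoloxidases of the crystal cells of the blood, were higher. They were 2 of 6 measured haemocyte markers, and 1.94% of all probe sets were called higher. PPO2 read 457, 575 and 613 in larvae and 1753, 2622 and 1844 in arrested prepupae (log2 1.91 ± 0.19, 3.75-fold, adjusted p = 5.1e-05), and PPO1 494, 426 and 468 against 667, 918 and 754 (0.74 ± 0.14, adjusted p = 0.0075). Both were held, whereas a second, dimmer probe set of PPO2 gave 0.36. In controls PPO2 fell by 1.49. In EcRi -4 h animals PPO2 had already read 3424, 3937 and 2642, above the arrested prepupae. The other 4 measured haemocyte markers, Hml, NimC1, Pxn and eater, were not called, with differences of -0.07 to 0.32. Their part in the prophenoloxidase result was not tested. CG9877 showed the largest difference of this kind, at 5554, 6508 and 6397 against 627, 633 and 708 (3.23 ± 0.13, adjusted p = 2.6e-08, held), with 334 in control prepupae and 7703 in EcRi -4 h animals.

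Cuticle genes were mixed, and 1 array weighed heavily on them. Of 58 measured Cpr genes, which encode cuticle proteins with a chitin-binding domain, 4 were higher and 1 lower (1.94% and 2.86% of all probe sets), and 29 had intervals within 1.5-fold. The higher calls numbered 8 without 2 arrays, 12 without 4 arrays and 7 after quantile normalization. Cpr47Eb was higher (1938, 3348 and 1854 against 339, 357 and 385, log2 2.67 ± 0.27, adjusted p = 4.7e-05) and Cpr49Ac lower (5276, 6594 and 4552 against 12074, 12837 and 11809, -1.18 ± 0.12, adjusted p = 4.1e-05), both held. Lcp65Ac, a larval cuticle gene, was higher (710.0, 922 and 699 against 304, 338 and 440.1, 1.11 ± 0.26, adjusted p = 0.026, held). Edg78E, a cuticle gene of the prepupal epidermis, read 154, 123 and 132 in larvae and 364, 2706 and 329 in arrested prepupae (2.34 ± 0.57, adjusted p = 0.028). Replicate 2 thus lay far above the other 2, and without it the difference was 1.35 (adjusted p = 2.0e-05), still called. Control prepupae read 117.

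EcRi 4 h replicate 2 was also the high array for other cuticle genes, which were not called. Edg84A read 265, 2301 and 232 in arrested prepupae against 162, 177 and 137 in larvae, Edg91 166, 1844 and 143 against 143, 185 and 215, and Lcp65Ad 637, 3415 and 431 against 464, 314 and 283. The nuclear receptor gene ftz-f1, which is expressed in mid-prepupae, read 41.8, 159 and 18.1, of which replicate 2 alone was above the floor, and 4.55, 19.4 and 10.0 in larvae. Osi2 read 355, 1359.5 and 275 against 155, 119 and 112 (log2 2.00 ± 0.42, adjusted p = 0.013), and 1.29 without replicate 2.

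Of 5 measured serum and fat body protein genes 3 had intervals within 1.5-fold of the larval level. Fbp1, a receptor for storage proteins, read 15269.9, 15501 and 14604 in larvae and 15639, 13549.7 and 15793 in arrested prepupae (log2 -0.02 ± 0.05), and Fbp2 stood slightly higher (0.38 ± 0.04, adjusted p = 1.2e-04), within the 1.5-fold limit. Lsp2, a storage protein of the haemolymph, was the only 1 of the 5 called (2.86% of all probe sets were called lower). It read 11356, 8049.6 and 10251 against 16096, 17073 and 15567 (-0.73 ± 0.09, adjusted p = 4.1e-04, held). In control prepupae it read 15873. After quantile normalization and with the compared arrays only, none of the 5 was called. Pepck1, the gluconeogenic phosphoenolpyruvate carboxykinase, was higher (5449, 6749.8 and 6288 against 2134, 2911 and 2251, 1.35 ± 0.18, adjusted p = 4.3e-04, held), as it was in control prepupae (1.64 ± 0.18).

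Lists of genes used by every cell were compared for scale, and they did not all stay level. None of 28 cytoplasmic ribosomal protein genes, 64 mitochondrial ribosomal protein genes or 46 oxidative phosphorylation genes was called, and their medians were 0.01, -0.13 and -0.35. Of the ribosomal protein genes 26 of 28 had intervals within 1.5-fold. Oxidative phosphorylation genes were nonetheless lower as a sum, at 31576, 43289.6 and 35657 in arrested prepupae. Control larvae had 44159.9 to 49189 and EcRi -4 h animals 45714 to 48865. Without EcRi 4 h replicate 2, 5 oxidative phosphorylation genes were called lower, and 9 without 2 arrays. Of the mitochondrial ribosomal protein genes 1 or 2 were called lower in 5 of the fits with arrays left out.

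Proteasome subunits were lower too, by more than the oxidative phosphorylation genes. Of 26 measured 17 were called lower (2.86% of all probe sets) and none higher, and the list median was -0.77, beside -0.16 for the control change, in which none was called. Their summed intensity was 53769 to 58378 in control larvae, 28753, 40372 and 33715 in arrested prepupae and 45995 to 47252 in EcRi -4 h animals, so the 3 arrested prepupae lay below all other arrays of these groups. Prosbeta7, a core subunit, read 757, 1518 and 1089.6 against 2295, 2099 and 2381 (log2 -1.07 ± 0.21, adjusted p = 0.0080). The size of this shift followed the arrays: 3 calls were held, 5 were made without EcRi 4 h replicate 1, 8 without control -4 h replicate 2, 9 without control -4 h replicate 3, 9 without EcRi 4 h replicate 3, 9 after quantile normalization, 21 without EcRi 4 h replicate 2, 23 without 2 arrays, 7 without 4 arrays and 5 with the compared arrays only. Prosbeta7 itself fell under the fold limit without 4 arrays (-0.56).

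**Figure D5:**
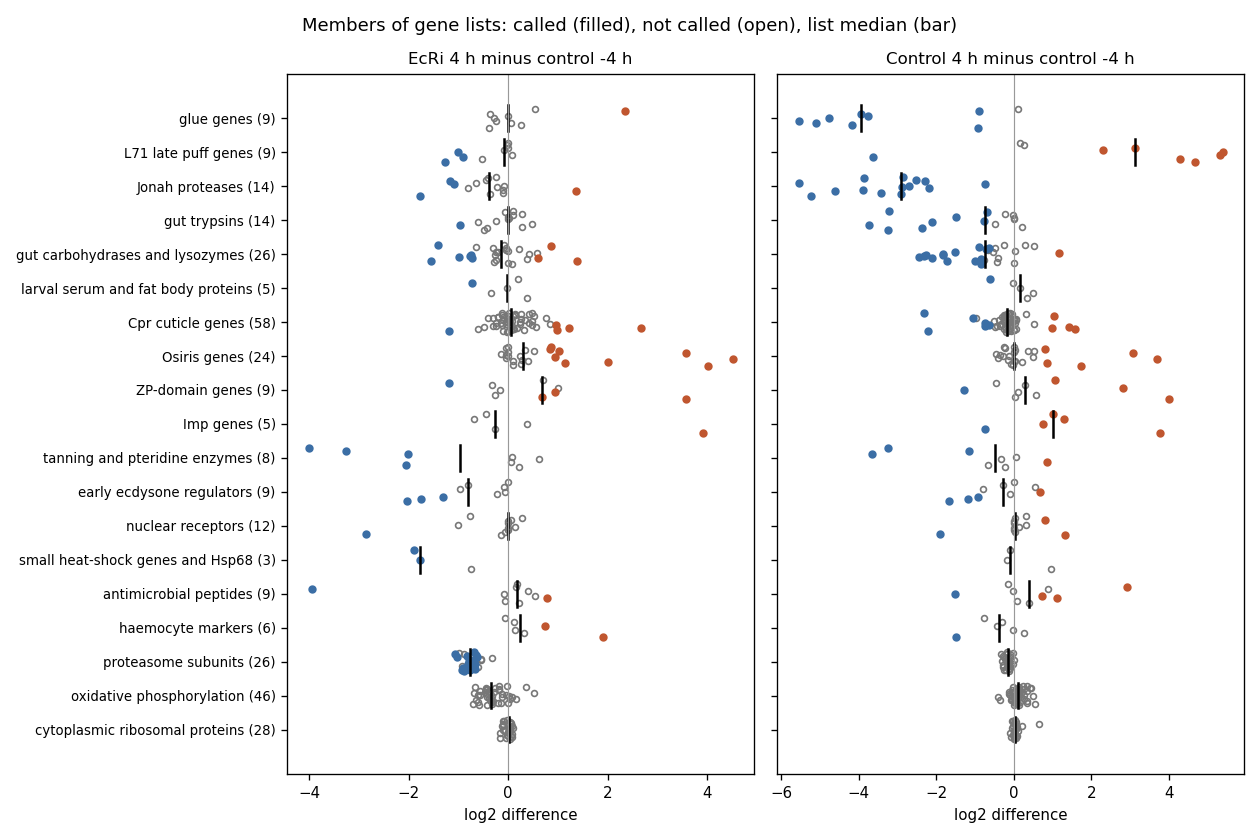
Log2 difference (horizontal axes) of each measured member of 19 gene lists (rows, number of genes in brackets), for EcRi 4 h minus control -4 h (left) and for control 4 h minus control -4 h (right); filled points were called, open points were not, and black bars are list medians. Glue, L71 and Jonah genes have medians of -0.01, -0.09 and -0.38 on the left and -3.95, 3.11 and -2.90 on the right.

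Levels of tissue markers were set side by side as well. None of the 9 measured neuron markers was called (summed intensity 2043 to 2254 in larvae and 1971 to 2127 in arrested prepupae). The 3 measured Malpighian tubule markers had no call either (802 to 1097 and 757 to 852). Some markers chosen for these tissues and for muscle were not measured. The 9 measured muscle markers summed to 12564 to 15762 in larvae, 10802 to 12249.9 in arrested prepupae and 8582 to 9173 in control prepupae. Of them 3 were lower (2.86% of all probe sets were called lower). These were Mlc1 (-1.08 ± 0.25), Mlc2 (-0.69 ± 0.18) and up (-0.69 ± 0.17), and all 3 were lost without control -4 h replicate 3 (adjusted p = 0.11, 0.16 and 0.12). Without EcRi 4 h replicate 1 the calls of Mlc2 (0.10) and up (0.12) were lost, and without EcRi 4 h replicate 3 that of Mlc2 (0.11). Of 16 measured germ line and sex markers 1 was lower (2.86% of all probe sets). That call was lost when any of 4 arrays was left out (control -4 h replicates 2 and 3, EcRi 4 h replicates 1 and 3). The sum of the list was 12367 to 13922 in larvae and 7372 to 10326 in arrested prepupae. Whether the share of tissues or of the sexes among the 10 pooled animals bears on other results was not tested.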

How the data were processed

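The authors normalized the Affymetrix Drosophila Genome Arrays and summarised them with dChip, and deposited 1 linear expression intensity per probe set and array (13966 probe sets, 18 arrays, 6 groups of 3 arrays; array medians 222 to 248). Which probe-level model and background treatment were chosen is not stated. Groups came from the sample titles, where EcRi arrays are titled as EcR or EcRi mutants. Probe sets were named from GEO's platform annotation (12443 with 1 symbol, 327 with several, 1196 with none), and 12394 of the single symbols were found unchanged in RefSeq's gene table. No sequences or coordinates were used. Precision is limited by the number of arrays, since no counts underlie the values.

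Intensities were raised to the floor (the 20th percentile, 91.6) and taken to log2. A group-means model on all 18 arrays was fitted with limma 3.58.1 in R 4.3.3 (12 residual degrees of freedom, prior 0.588). Two-sided p-values were adjusted over all probe sets. The fit was also run on simulated data with independent noise and equal spread in all groups. That run did not include array-wide deviations such as those seen here. A call needed an adjusted p under 0.10 and 1.5-fold. The 39 lists took, for each gene, its brightest probe set. The comparison, the members and the lists were chosen with earlier results of these data known, and no test of a list was made. Named genes were EcR, the 10 called genes furthest above and the 10 furthest below larvae (1 symbol, no overlap, neither group wholly at the floor), the 5 largest control changes in each direction that kept the larval level within 1.5-fold, likewise the 5 called on the prepupal side of the midpoint, and up to 4 called members of each list (2 where none was called). Other list members are named as examples chosen after their values were seen.

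Alternatives were the floor set to the 5th or the 40th percentile, a pseudocount of 50, quantile or median normalization, a restriction to brighter probe sets, robust fitting with a variance trend, the compared arrays only, the replicate number as a block, 1 probe set per gene, an adjusted p under 0.05, a 2-fold or no fold limit, each array left out in turn, 2 or 4 arrays left out, and significance analysis of microarrays (SAM, reimplemented, 20 permutations), which the authors used.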

Additional observations from a re-analysis of the deposited data

How the results depend on the processing

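Of 119 named probe sets none turned its direction in any setting, 51 lost their call in 1 or more settings and 10 gained one, and 66 of the 93 called were held. With 1 array left out the calls numbered 462 to 934 (197 to 289 higher, 246 to 692 lower), those against the midpoint 610 to 1670, the control changes 923 to 1243, those on the larval side 222 to 414 and on the prepupal side 75 to 107, and the probe sets within 1.5-fold 5106 to 5740. Without 2 arrays 1339 were called (955 lower), 1756 against the midpoint and 138 on the prepupal side. Without 4 arrays it was 1119 (736 higher) and 199 on the prepupal side. With the compared arrays only 223 were called (72 higher, 151 lower). That fit has fewer degrees of freedom and takes the spread from the compared groups alone. Which of these lowered the count was not tested. SAM called 904, 617 of them lower. A 2-fold limit gave 357 (162 higher, 195 lower), 645 control changes, 455 against the midpoint, 148 on the larval and 44 on the prepupal side. With no fold limit these were 1149 (456 and 693), 2018, 2232, 606 and 192. With brighter probe sets only, where fewer were tested, 3847 were within 1.5-fold. The mean correlation of arrested prepupae with control larvae was 0.918, and 0.905 over probe sets above the floor. Quantile normalization moved the share of lower calls from 59.6% to 48.7%. Same-numbered arrays of the compared groups had correlations of deviations of 0.17, 0.45 and -0.57, so the numbers were not taken as pairs, and the replicate block gave 661 calls (266 higher, 395 lower). Only 3 arrays stand behind each group, which limits small differences most.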

Other observations

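Among genes of detoxification and lipid storage, some were called in either direction. Of 81 measured cytochrome P450 genes 3 were higher and 4 lower, beside 1.94% and 2.86% of all probe sets, with a median of 0.00. Of these calls 1 and 3 were held. The higher calls numbered 1 without control -4 h replicate 2 or 3, 6 without 2 arrays and 10 without 4 arrays, and with the compared arrays only none was higher and 1 lower. Cyp6d5 read 167, 457 and 180.0 in arrested prepupae and 893, 883 and 1412 in control larvae (log2 -2.11 ± 0.41, adjusted p = 0.0084 with limma) and Cyp4d1 was also lower (-0.98 ± 0.14), both held. Cyp18a1, which inactivates 20E, read 134, 421 and 159.8 against 87.2, 136 and 96.0 and was not called (0.97 ± 0.32), while controls rose by 1.90. Of 67 glutathione and UDP-glycosyl transferase genes 3 were lower (5 without EcRi 4 h replicate 2, 6 without 2 arrays), among them Ugt301D1 (187, 259 and 181 against 1342, 1378 and 1704, -2.83 ± 0.18) and Ugt37A3 (-1.80 ± 0.29), both held and on the prepupal side of the control midpoint. Of 18 genes of lipid storage and lipases 3 were higher and 1 lower, and with the compared arrays only none was called. Without EcRi 4 h replicate 2 it was 2 and 3, and without 2 arrays 5 and 4. Acbp6, an acyl-CoA-binding protein gene, was higher (2188, 2812 and 1471 against 1012, 566 and 567, 1.60 ± 0.27) and Acbp1 lower (505, 742 and 555 against 1137, 1181 and 1412, -1.06 ± 0.24), both held.

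Cell death and autophagy remove larval tissues during metamorphosis. Dark, the adaptor of the apoptosome, read 181, 169 and 168 in arrested prepupae and 309, 302 and 305 in larvae (log2 -0.82 ± 0.05, adjusted p = 1.2e-06 with limma), and Buffy, of the Bcl-2 family, was lower too (-0.71 ± 0.14). They were the 2 calls among 12 measured cell death regulators (2.86% of all probe sets were called lower), and both were held, while without 4 arrays 2 others were called higher. Of 20 autophagy genes 3 were lower, 1 of them held. The count was 1 when control -4 h replicate 2 or 3 or EcRi 4 h replicate 1 or 3 was left out, 6 without EcRi 4 h replicate 2, 1 after quantile normalization and 0 with limma on the compared arrays only. Atg7, for the enzyme that activates ubiquitin-like proteins in autophagy, read 123, 201 and 117 against 330.4, 564 and 685 (-1.82 ± 0.37, held). Timp, the inhibitor of matrix metalloproteinases, was the called gene among 12 of basement membrane and matrix (1.94% of all probe sets were called higher). It read 241, 473 and 314 against 110.3, 124 and 145 (1.39 ± 0.26, held).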
